A study of Homo sapiens with 38 samples.

Results

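The genes described here are the long intergenic noncoding RNA genes that carry a LINC number. They were taken as every GENCODE gene of type lncRNA whose symbol is LINC followed by a number, with no antisense suffix. The rule found 2261 genes in GENCODE release 44, of which 2225, with 4886 transcripts, were in the quantified files, among 58425 genes in all. The comparison classes were 1801 antisense lncRNA genes, 11082 other lncRNA genes and 19783 protein-coding genes. RNA came from HCT116, a near-diploid human colorectal carcinoma cell line, grown either as wild type or as lines with AGO1 alone, AGO2 alone, both (AGO1/2) or these and AGO3 (AGO1/2/3) knocked out by CRISPR editing. Nuclear and cytoplasmic RNA of each genotype was depleted of ribosomal RNA and sequenced in 3 stranded libraries, which gave 30 libraries in 10 groups. The comparison asks where LINC transcripts sit in the cell and how their levels differ when Argonaute genes are lost. Each genotype is 1 cell line, and the 3 libraries of a group are successive or near-successive passages, numbered 27, 28 and 29 in wild-type cells but between 6 and 14 in the knockouts. Genotype, line and passage therefore cannot be told apart, and p-values measure only the spread between passages of a line. All knockouts were set against the same wild-type libraries.

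Long intergenic noncoding RNAs are transcribed by RNA polymerase II between protein-coding genes, are usually spliced and polyadenylated, and are commonly less abundant than mRNAs. Many stay in the nucleus, and some act near their own locus, while others are exported and can be bound by proteins or microRNAs in the cytoplasm. Argonaute proteins carry microRNAs, pair them with RNAs through the seed at bases 2 to 8, and repress the paired RNAs. AGO2 is the family member best known for slicing its targets. A few LINC genes are also primary transcripts of microRNAs.

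Of the 2225 LINC genes, 2076 overlapped no protein-coding gene, 96 overlapped one on the opposite strand and 53 overlapped one on the same strand. Thus 149 genes of the list were not intergenic in this annotation. The median gap to the nearest protein-coding gene was 52174 bp, and the median longest transcript had 1540 nt. In 466 genes, over 10% of the 31-base words of the transcripts also occurred in transcripts of another gene, counted on either strand. Reads could be split between genes that share words. In stranded libraries the share can overstate this where the other gene lies on the opposite strand. The values of the 466 genes are uncertain, and the share is given where one is named.

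8 LINC genes span a microRNA gene, and mature microRNAs of some of them are shown because microRNAs are the guides that Argonaute proteins carry. Sequences are from RefSeq (GRCh38.p14), 5′ to 3′, with the seed in capitals. LINC01138 spans MIR5087 (mature sequence at chr1:148334522-148334544, minus strand), LINC00960 spans MIR4273 (chr3:75738290-75738307, plus strand) and LINC00472 spans MIR30C2 and MIR30A on chromosome 6.
hsa-miR-5087: gGGUUUGUagcuuugcuggcaug
hsa-miR-4273: gUGUUCUCugauggacag
hsa-miR-30c-5p: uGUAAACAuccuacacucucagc
hsa-miR-30a-5p: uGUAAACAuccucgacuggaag
The pair of miR-30 sequences shares the seed GUAAACA, while the other seeds shown differ. LINC01138, with 27.0% of its words shared, was the only abundant host, at 11.8 TPM (a level per transcript length, scaled to the same total in every library) in wild-type nuclei. LINC00960 (13.57% shared) stood at 0.72 TPM there, and LINC00472 had at most 2 reads in any library. The other 5 hosts had at most 8 reads in any library.

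RefSeq promoter sequences were matched for 1470 of 2218 LINC symbols. The sequences that follow run from 250 bases before to 50 bases after the RefSeq start of 5 genes whose levels moved in different ways across the knockouts. Capitals mark each match to the TATA box motif TATAAA, to the CAAT box motif, spelled CCAAT, or to the GC box motif, whose letters are GGGCGG, on either strand. LINC00511 and LINC01031 were lower in the nuclei of all 4 knockouts, and LINC00173 was lower with AGO1/2 and AGO1/2/3 lost. LINC03040 was higher in the AGO1/2/3 knockout, while LINC01232 was lower in the AGO1 knockout and higher in the AGO1/2 and AGO1/2/3 knockouts. The windows lie at chr17:72640423-72640722 on the minus strand, chr1:193304495-193304794 on the plus strand, chr12:116533172-116533471 on the plus strand, chr6:44000335-44000634 on the plus strand and chr13:99499257-99499556 on the minus strand, in that order.
LINC00511: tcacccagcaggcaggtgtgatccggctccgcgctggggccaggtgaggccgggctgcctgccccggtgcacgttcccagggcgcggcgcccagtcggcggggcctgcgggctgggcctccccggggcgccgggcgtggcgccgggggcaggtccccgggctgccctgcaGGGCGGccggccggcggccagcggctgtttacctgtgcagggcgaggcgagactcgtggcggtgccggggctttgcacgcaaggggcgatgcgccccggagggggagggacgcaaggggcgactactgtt
LINC01031: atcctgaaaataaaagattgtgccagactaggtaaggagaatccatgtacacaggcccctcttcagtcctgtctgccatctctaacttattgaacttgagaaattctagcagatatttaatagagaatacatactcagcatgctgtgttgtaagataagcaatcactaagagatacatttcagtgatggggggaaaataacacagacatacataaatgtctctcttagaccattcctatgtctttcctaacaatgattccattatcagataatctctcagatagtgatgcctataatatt
LINC00173: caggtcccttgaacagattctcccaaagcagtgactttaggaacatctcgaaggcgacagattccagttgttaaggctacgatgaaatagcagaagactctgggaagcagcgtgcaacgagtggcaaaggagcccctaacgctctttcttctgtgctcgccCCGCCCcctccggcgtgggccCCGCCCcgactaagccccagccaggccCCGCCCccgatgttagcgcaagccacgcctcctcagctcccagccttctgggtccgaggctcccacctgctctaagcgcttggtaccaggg
LINC03040: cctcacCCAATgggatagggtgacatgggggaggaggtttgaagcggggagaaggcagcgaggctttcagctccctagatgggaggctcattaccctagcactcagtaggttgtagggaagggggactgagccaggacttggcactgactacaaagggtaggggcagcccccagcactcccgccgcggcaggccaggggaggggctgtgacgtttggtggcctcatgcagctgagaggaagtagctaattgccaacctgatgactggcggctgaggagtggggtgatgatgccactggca
LINC01232: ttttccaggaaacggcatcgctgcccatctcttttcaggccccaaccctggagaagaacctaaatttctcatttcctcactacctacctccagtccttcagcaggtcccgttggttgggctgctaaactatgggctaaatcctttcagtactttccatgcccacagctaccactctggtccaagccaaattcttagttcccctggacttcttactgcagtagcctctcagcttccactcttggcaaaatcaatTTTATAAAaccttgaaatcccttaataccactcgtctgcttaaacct
The LINC00511 window held 1 GGGCGG and 35 CpG dinucleotides, while the LINC01031 window held no match and 0 CpG. LINC00173 had 3 matches to GGGCGG and 18 CpG, LINC03040 had 1 CCAAT and 7 CpG, and LINC01232 had 2 overlapping TATAAA matches and 4 CpG. GGGCGG occurred in 45.0% of the 35116 promoters of all genes, in 18.5% of the 1620 LINC promoters and in 44.3% of the 212 promoters of LINC genes that were abundant enough to test in nuclei. TATAAA occurred in 11.5%, 16.7% and 11.8% of these sets, and CCAAT in 34.6%, 36.4% and 42.9%. The median CpG count in a window was 14, 4 and 11.5. Among the 16 promoters matched for 14 of the 28 genes lower in all knockouts, the shares were 12.5% for TATAAA, 43.8% for CCAAT and 37.5% for GGGCGG. The LINC promoters of tested genes were thus closer to the average promoter in GGGCGG and CpG than LINC promoters as a whole.

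Sequencing depth was 20431557 to 26536692 estimated reads per library in wild-type nuclei, 31252459 to 54097984 in knockout nuclei, 39476205 to 43281746 in wild-type cytoplasm and 66451720 to 79731793 in knockout cytoplasm. The knockouts were thus sequenced more deeply in both fractions, and depth and genotype cannot be told apart. AGO1 RNA checked the AGO1 labels, at 9.34 to 12.6 TPM in wild-type nuclei and 2.39 to 4.13 TPM in the nuclei of the 3 groups with AGO1 edited. AGO2 RNA in cytoplasm was 31.1 to 39.8 TPM in wild type, 16.6 to 21.0 TPM in the AGO2 knockout, 28.6 to 29.2 TPM in the AGO1/2 knockout and 24.1 to 28.8 TPM in the AGO1/2/3 knockout. AGO3 RNA in nuclei was 13.7 to 16.1 TPM in the AGO1/2/3 knockout, within the range of 13.4 to 16.2 TPM of the other 3 knockouts and under the 18.2 to 23.3 TPM of wild type. AGO2 RNA in nuclei was 46.0 to 57.8 TPM in wild type and 40.5 to 52.5 TPM in the AGO1 knockout. It was 26.6 to 34.0 TPM in the AGO2, 28.5 to 41.2 TPM in the AGO1/2 and 24.5 to 29.3 TPM in the AGO1/2/3 knockout. The multiple knockouts thus lay below wild type in both fractions, but nuclear AGO1/2 and AGO1 knockouts overlapped. An edited gene can lose its protein and keep its RNA. These levels do not check the AGO3 label and only partly check the AGO2 label of the multiple knockouts, and the groups are called by their labels. Of the defining markers of a colon epithelial line, KRT8 stood at 498 TPM in wild-type nuclei. In AGO1/2 knockout nuclei KRT8, KRT18 and CLDN4 rose by 1.34, 1.19 and 0.81 on the log2 scale, while EPCAM, CLDN7 and CDH1 fell by 0.56, 1.47 and 2.18 (adjusted p at most 0.00018). The keratins were not higher in the cytoplasm of that knockout. Mean TPM there was 337 for KRT8 and 309 for KRT18, against 446 and 407 in wild type. EPCAM and CDH1 were at 44.1 and 1.12 TPM, against 142 and 12.3.

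Most LINC genes were silent or near silent in this line. No read was assigned to 1095 of the 2225 in any of the 30 libraries, 344 reached 10 reads in at least 1 library, and 150 reached a mean of 1 TPM in at least 1 group. In wild-type nuclei 138 genes reached 1 TPM and 20 reached 10 TPM, while in wild-type cytoplasm 55 reached 1 TPM and 3 reached 10 TPM. The 10 most abundant LINC genes held 35.69% of all LINC TPM in wild-type nuclei and 31.75% in wild-type cytoplasm. The genes that could be tested, 288 in nuclei, 251 in cytoplasm and 322 in the fit of both fractions, lay closer to protein-coding genes (median 14008 bp) than the list as a whole, and passed a filter on low reads.

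Together the LINC genes made up a small part of each library, and their share of the TPM was lower in every knockout. In nuclei they held 0.0914% ± 0.0029 of the TPM in wild type (SD, n = 3), 0.0619% ± 0.0035 in the AGO1 knockout, 0.0578% ± 0.003 in the AGO2 knockout, 0.0489% ± 0.0019 in the AGO1/2 knockout and 0.0502% ± 0.0037 in the AGO1/2/3 knockout. The wild-type libraries ranged from 0.0891% to 0.0947% and the 12 knockout libraries from 0.0467% to 0.0658%, so the ranges did not overlap. In cytoplasm the shares were 0.0277% ± 0.0022 in wild type, 0.0219% ± 0.0004, 0.0225% ± 0.0006, 0.0196% ± 0.0011 and 0.0219% ± 0.0003 in the knockouts in the same order. Here too the wild-type range of 0.0261% to 0.0301% lay above the knockout range of 0.0187% to 0.023%. With 3 libraries a group, an exact permutation test of a pair of groups cannot go under p = 0.1, so no test was made. As a share of reads rather than TPM, the nuclear ranges were also apart (0.1389% to 0.1532% in wild type against 0.0716% to 0.1123%), but the cytoplasmic ranges overlapped (0.0441% to 0.0524% against 0.0406% to 0.0474%). A share of TPM also depends on all other RNAs of the library. By limma on log2(TPM + 0.1), 16.6%, 26.6%, 50.0% and 37.3% of all genes were called lower in cytoplasm. For LINC genes these values were 13.5%, 15.9%, 33.9% and 21.9%, so the lower cytoplasmic TPM was not particular to them. Their median cytoplasmic log2 change in edgeR was -0.09, -0.04, 0.02 and 0.04. A lower bulk level can also come from fewer cells that make an RNA or from less RNA per cell, and these cannot be told apart.

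**Figure D1:**
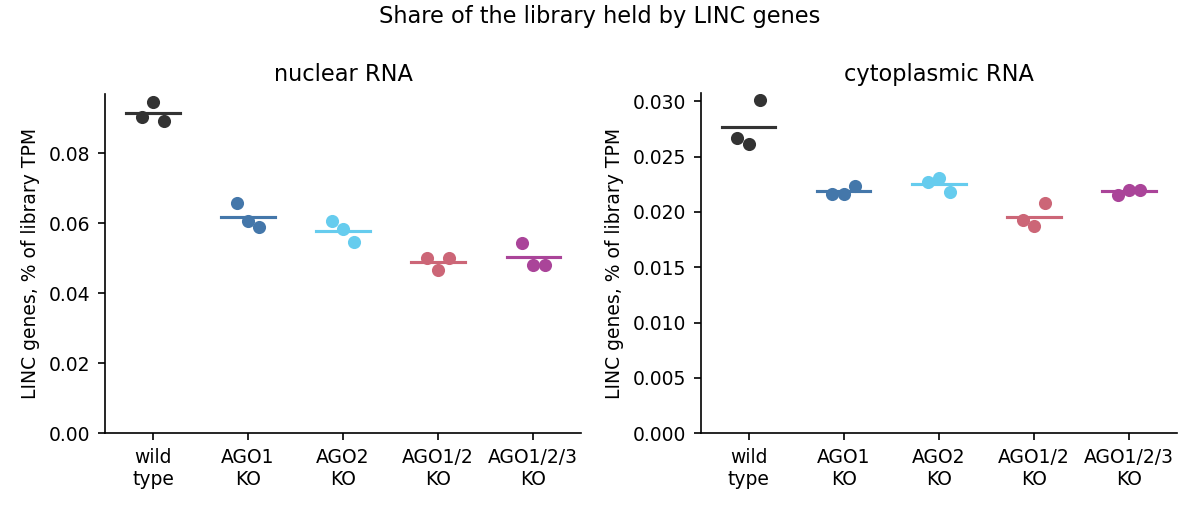
Share of each library's TPM held by all LINC genes (% of library TPM, linear axes from 0; a point is a library, a horizontal line the mean of 3), in nuclear RNA on the left and cytoplasmic RNA on the right. The wild-type points sit above every knockout point in both panels, and the lowest nuclear means are those of the AGO1/2 knockout (0.0489%) and the AGO1/2/3 knockout (0.0502%). A share of TPM depends on all other RNAs of the library.

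The RNA of most LINC genes was relatively more abundant in nuclei than in cytoplasm. In wild-type cells, 214 of 322 tested LINC genes were called higher in nuclei and 26 higher in cytoplasm, where 39.6% of all 20104 genes were called higher and 37.3% lower in nuclei. Calls throughout are those of edgeR's quasi-likelihood test with Benjamini-Hochberg adjustment over all genes tested, at an adjusted p of at most 0.05. The median log2 ratio of nuclear to cytoplasmic level was 1.5 over the LINC genes, 1.07 over antisense lncRNA genes, 2.29 over other lncRNA genes and -0.28 over protein-coding genes. The ratio was above 0 for 83.5% of LINC genes and above 2 on the log2 scale for 42.9%, against 37.9% and 6.2% of protein-coding genes. LINC genes thus stood between antisense and other lncRNA genes. Since each library is scaled to its own total, the ratio compares shares of a fraction and not molecules per cell. With TPM in place of scaled reads, the median over all genes moved by 0.58, and with each library centred on its own median 144 LINC genes were higher in nuclei and 64 lower (44.7% and 19.9%, beside 30.9% and 47.3% of all genes).

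**Figure D2:**
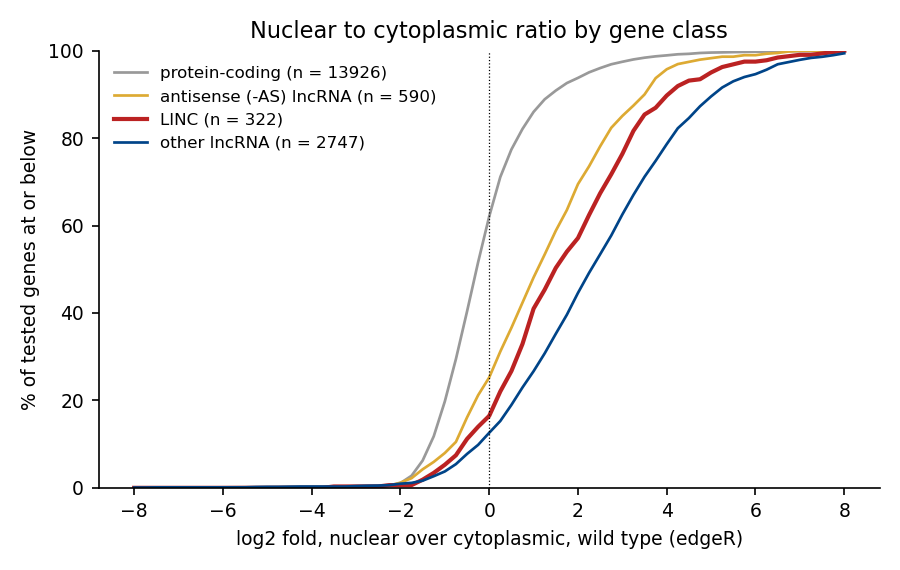
Cumulative share of tested genes (vertical axis, %) at or below each log2 nuclear to cytoplasmic ratio (horizontal axis) in wild-type cells, by gene class. The LINC curve, with a median of 1.5, lies to the right of the protein-coding and antisense curves and to the left of the curve of other lncRNA genes.

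The most nuclear of the LINC genes at 1 TPM or more were LINC02603 (log2 ratio 5.59, 47.24% of words shared), LINC01238 (5.44), LINC01355 (5.15), LINC01409 (5.11, 22.84% shared), LINC01290 (5.07) and LINC00342 (5.03, 35.14% shared). LINC01355 lies at chr1:23281307-23287488 on the minus strand and was listed at 8.92, 8.91 and 8.32 TPM in the wild-type nuclear libraries but 0.18, 0.22 and 0.11 TPM in cytoplasm. LINC01238 rested on at most 5 cytoplasmic reads in a library. At the other end were LINC02967 (-1.69), LINC03011 (-1.53), LINC00460 (-1.52), LINC01405 (-1.51), LINC02901 (-1.32) and LINC01315 (-1.3), all called at an adjusted p of 0.00055 or less. LINC00460, which has been described in several tumour types, stood at 1.73, 1.21 and 2.70 TPM in wild-type nuclei and 4.07, 3.03 and 4.29 TPM in cytoplasm. The nuclear and cytoplasmic libraries did not overlap for either LINC01355 or LINC00460.

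The nuclear libraries of the knockouts were lower for many LINC genes, and most so for AGO1/2. In the AGO1 knockout 9 of 288 LINC genes were called higher and 57 lower in nuclei, where 14.3% of all 18919 genes were called higher and 15.6% lower. In the AGO2 knockout 15 were higher and 73 lower, beside 20.2% and 19.9% of all genes. Loss of AGO1/2 gave 15 higher and 154 lower, beside 32.9% and 34.7%. Loss of AGO1/2/3 gave 23 higher and 111 lower, beside 29.1% and 29.5%. In percent of the tested LINC genes these counts were 3.12% and 19.79%, 5.21% and 25.35%, 5.21% and 53.47%, and 7.99% and 38.54%. Calls of a lower level were thus above the background in each knockout and calls of a higher level below it. Without AGO1 replicate 6, 7 or 8 the 9 higher calls of the AGO1 knockout became 5, 4 and 5.

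The median log2 change in nuclei over the LINC genes was -0.27, -0.32, -0.74 and -0.45 in the knockouts of AGO1, of AGO2, of AGO1/2 and of AGO1/2/3, in that order, beside -0.03, -0.02, -0.06 and -0.03 over all genes. Other lncRNA genes gave -0.17, -0.29, -0.82 and -0.58, antisense lncRNA genes -0.11, -0.14, -0.57 and -0.34, and protein-coding genes 0.00, 0.06, 0.15 and 0.12. The lower nuclear level was therefore shared with other lncRNA classes. The known nuclear RNA MALAT1 fell with them, by 0.53, 0.49, 1.18 and 0.95 on the log2 scale, while GAPDH mRNA in the same nuclear libraries rose by 0.60, 0.60, 1.11 and 0.91. The mean level of MALAT1 was 3041 TPM in wild-type nuclei and 1313 TPM in AGO1/2 knockout nuclei, and that of GAPDH 1263 and 2666 TPM. Other fraction markers were mixed. In wild-type nuclei and then the knockouts in the same order, ACTB had mean levels of 78.0, 67.8, 52.5, 209 and 140 TPM. EEF1A1 had 2040, 2358, 2251, 3306 and 2450, NEAT1 127, 55.1, 113, 54.5 and 69.9, and KCNQ1OT1 1.93, 1.69, 1.41, 1.23 and 1.23. Mitochondrial MT-CO1 had 436, 382, 402, 379 and 381 TPM, and MT-ND4 181, 169, 177, 170 and 186 TPM. The part that the purity of the fractions, or the balance of mRNA and nuclear RNA in the libraries, had in the LINC values was not tested. With limma on log2(TPM + 0.1), whose median over all genes shifted by -0.25, -0.25, -0.12 and -0.25, the calls were 1 higher and 87 lower, 6 and 104, 19 and 149, and 14 and 130. The lower calls were then 30.2%, 36.1%, 51.7% and 45.1% of LINC genes, beside 29.3%, 32.3%, 34.8% and 39.0% of all genes. The higher calls were 0.347%, 2.08%, 6.6% and 4.86%, beside 1.82%, 3.57%, 26.0% and 14.2%. After centring each library on its median the calls were 12 and 33, 19 and 45, 28 and 116, and 33 and 85. Lower calls were then 11.5%, 15.6%, 40.3% and 29.5%, beside 8.67%, 14.4%, 28.1% and 23.7% of all genes. Higher calls were 4.17%, 6.6%, 9.72% and 11.5%, beside 16.8%, 20.1%, 35.1% and 30.7%. In the AGO1 knockout on TPM, and in the AGO2 knockout after centring, the share of lower LINC genes was thus near the background.

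In cytoplasm fewer LINC genes were called, and calls of a lower level were below the background in every knockout. The AGO1 knockout had 3 of 251 higher and 14 lower, beside 4.28% and 8.13% of all 17605 genes. The AGO2 knockout had 8 higher and 19 lower, beside 7.07% and 9.0%. The AGO1/2 knockout had 34 higher and 40 lower, beside 23.9% and 25.4%, and the AGO1/2/3 knockout 29 higher and 25 lower, beside 18.6% and 20.0%. Single libraries moved several of these counts. The AGO1/2/3 higher count was 18 without replicate 12 of that knockout and 19 without wild-type replicate 27, and the AGO1/2 lower count was 24 without AGO1/2 replicate 9. The AGO2 counts were 5 higher without replicate 9 and 11 lower without replicate 8 of that knockout. For AGO1 there was 1 higher without AGO1 replicate 6 or 7 or wild-type replicate 27, and 23 lower without the latter. The median log2 change over LINC genes was -0.09, -0.04, 0.02 and 0.04, and over all genes -0.01, 0.00, -0.01 and -0.01. On log2(TPM + 0.1), where the median over all genes shifted by -0.14, -0.21, -0.36 and -0.23, the calls were 4 higher and 34 lower, 6 and 40, 22 and 85, and 21 and 55, with 13.5%, 15.9%, 33.9% and 21.9% lower beside 16.6%, 26.6%, 50.0% and 37.3% of all genes. The higher calls on TPM were 1.59%, 2.39%, 8.76% and 8.37% of LINC genes, beside 1.18%, 1.72%, 7.65% and 8.08%. After centring the calls were 10 and 14, 19 and 14, 59 and 26, and 47 and 20. Lower calls were then 5.58%, 5.58%, 10.4% and 7.97%, beside 4.86%, 5.79%, 19.6% and 15.5% of all genes. Higher calls were 3.98%, 7.57%, 23.5% and 18.7%, under the 9.93%, 8.82%, 28.4% and 21.1% of all genes. The balance of cytoplasmic calls thus depended on the scaling. The mitochondrial mRNA MT-CO1 rose by 0.92 in the AGO1/2 knockout in the same cytoplasmic libraries, and its part in these values was not tested.

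**Figure D3:**
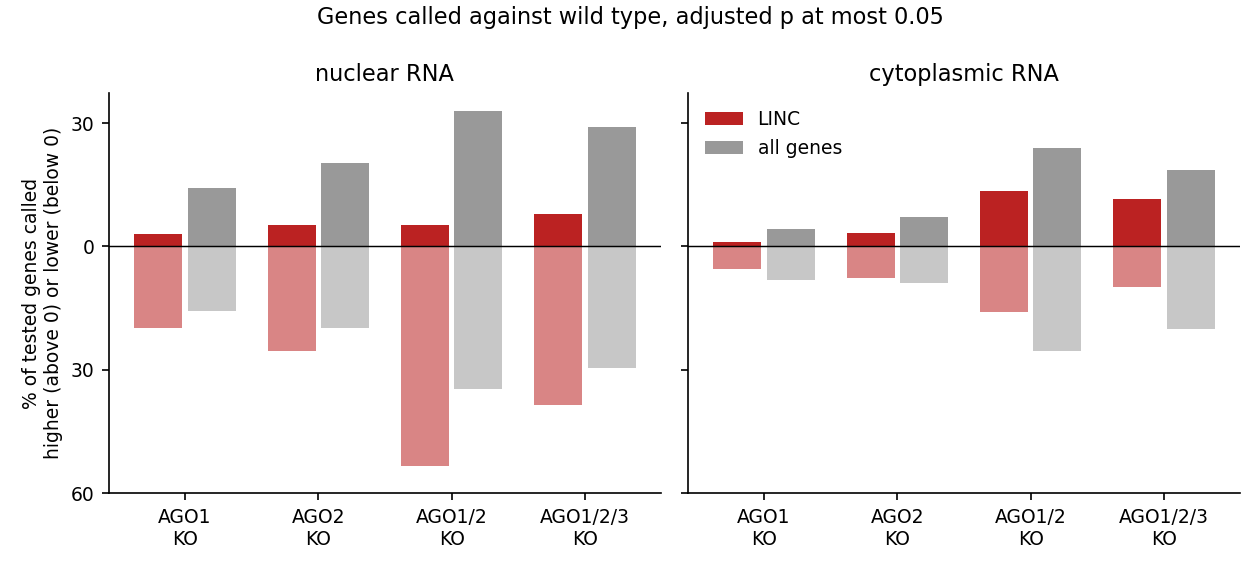
Percent of tested genes called higher (above 0) or lower (below 0) than wild type in each knockout, for LINC genes in red and all genes in grey, in nuclear RNA on the left and cytoplasmic RNA on the right (edgeR, adjusted p at most 0.05). In nuclei the lower bars of LINC genes are longer than those of all genes, up to 53.47% in the AGO1/2 knockout, while in cytoplasm no LINC bar is longer than that of all genes.

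Among the 226 LINC genes tested in both fractions, calls in nuclei alone were more often lower than over the 16723 genes of all kinds tested in both. In the AGO1/2 knockout 86 LINC genes were lower in nuclei alone, 1 was higher in nuclei alone, 30 were lower in both fractions, 14 were higher in both and 72 were called in neither, which is 38.1%, 0.442%, 13.3%, 6.19% and 31.9% of them. Over all genes the same patterns held 14.8%, 14.7%, 13.9%, 17.8% and 19.8%. For AGO1/2/3 the corresponding numbers were 66, 9, 21, 14 and 100 LINC genes (29.2%, 3.98%, 9.29%, 6.19% and 44.2%), beside 14.1%, 16.5%, 12.3%, 14.9% and 29.4% of all genes. In the AGO2 knockout they were 49, 9, 13, 6 and 145 (21.7%, 3.98%, 5.75%, 2.65% and 64.2%), beside 12.6%, 17.3%, 6.26%, 5.45% and 53.5%. The AGO1 knockout had 29, 8, 13, 1 and 172 (12.8%, 3.54%, 5.75%, 0.442% and 76.1%), beside 10.2%, 12.7%, 5.66%, 3.31% and 64.4%. The share of LINC genes lower in both fractions was thus close to or under that of all genes. LINC02846 was the gene higher in both fractions of the AGO1 knockout, by 1.33 in nuclei and 1.54 in cytoplasm on the log2 scale. With AGO1/2 lost, 4 genes were lower in nuclei and higher in cytoplasm, namely LINC01098 (-0.84 and 1.01), LINC02008 (-1.18 and 0.64), LINC00640 (-1.03 and 0.80) and LINC00680 (-0.63 and 0.41, 47.34% of words shared). LINC02846, LINC02008 and the list of these 4 were picked out after their values were seen.

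**Figure D4:**
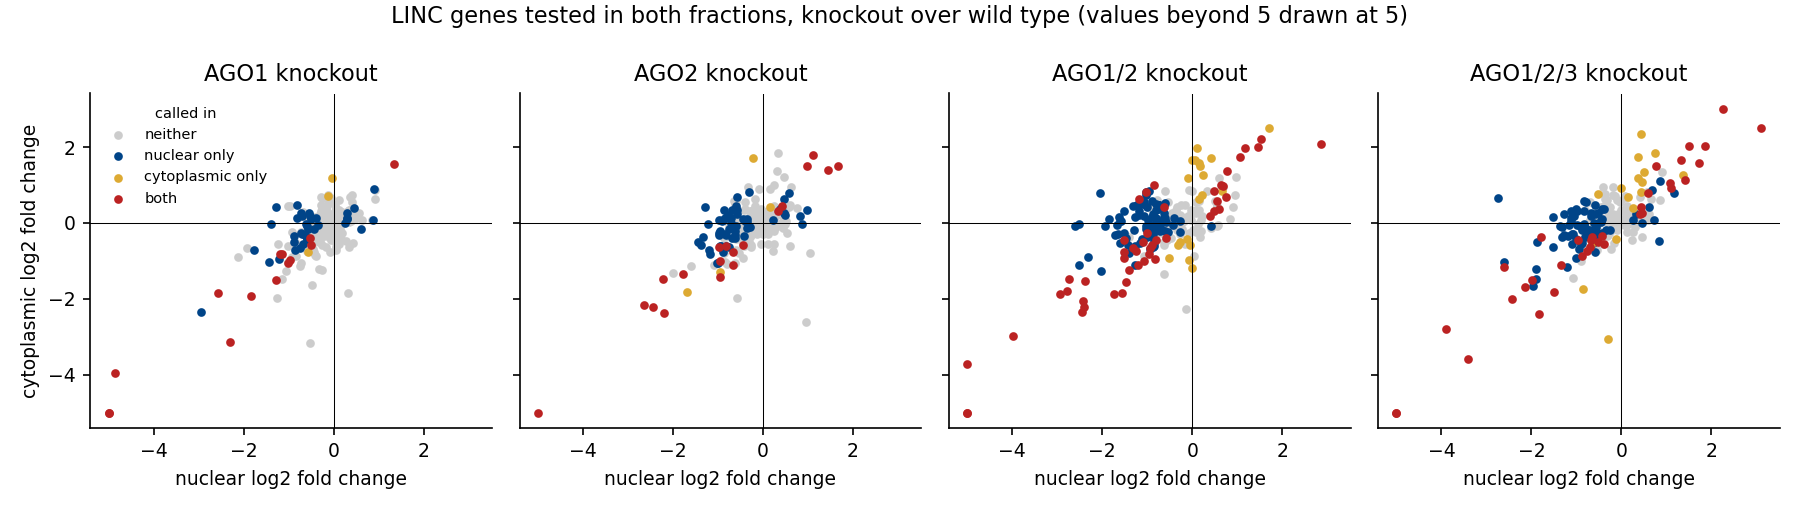
Log2 fold change in nuclear RNA (horizontal axis) against that in cytoplasmic RNA (vertical axis) for the 226 LINC genes tested in both fractions, 1 panel for each knockout, coloured by the fraction in which a gene was called; values beyond 5 are drawn at 5. In the AGO1/2 panel 86 genes called lower in nuclei alone lie left of the vertical line and near the horizontal one.

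The change of the ratio itself was tested as the difference of the nuclear and the cytoplasmic log2 change. In the AGO1 knockout the ratio rose for 0 of 322 LINC genes and fell for 3, beside 0.184% and 0.478% of all 20104 genes (DESeq2 called 5 LINC genes in all). An unadjusted edgeR p under 0.05 was found for 35 of the 322 LINC genes and, a larger share, for 2833 of the 20104 genes. In the AGO2 knockout it rose for 1 and fell for 17, beside 2.63% and 3.13%. With AGO1/2 lost it rose for 3 and fell for 85, beside 19.6% and 17.0%, and in the AGO1/2/3 knockout it rose for 2 and fell for 45, beside 11.7% and 11.1%. The few rises changed with single libraries, to between 0 and 2 in the AGO2, 1 and 3 in the AGO1/2 and 0 and 2 in the AGO1/2/3 knockout. For AGO2 there were 2 without cytoplasmic AGO2 replicate 8, still 1 without cytoplasmic wild-type replicate 28 or 29, nuclear AGO2 replicate 9 or nuclear wild-type replicate 28, and 0 without any other library. For AGO1/2 there was 1 without cytoplasmic wild-type replicate 27 or nuclear AGO1/2 replicate 9 or 10, and the AGO1/2/3 count stayed at 2 only without cytoplasmic AGO1/2/3 replicate 14 or cytoplasmic wild-type replicate 28. The 17 falls of the AGO2 knockout became 7 without nuclear wild-type replicate 28, 8 without cytoplasmic AGO2 replicate 9, 10 without cytoplasmic wild-type replicate 28 and 11 without nuclear AGO2 replicate 9 or 10. The median change over LINC genes was -0.06, -0.19, -0.76 and -0.49, that over other lncRNA genes -0.17, -0.29, -0.83 and -0.54, and that over protein-coding genes 0.08, 0.11, 0.13 and 0.08. With the passage as a replicate block, since wild-type fractions of the same passage deviated together, the calls in the AGO1 knockout were 0 higher and 7 lower.

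On the scaled reads, LINC genes called higher in nuclei than in cytoplasm nevertheless outnumbered those called lower in every knockout. In the AGO1 knockout 206 were higher in nuclei and 23 lower (63.98% and 7.14% of 322, beside 40.0% and 34.5% of all genes). The AGO2 knockout had 201 and 24 (62.42% and 7.45%, beside 39.8% and 33.6%). The AGO1/2 knockout had 159 and 40 (49.38% and 12.42%, beside 36.9% and 31.6%), and the AGO1/2/3 knockout 178 and 28 (55.28% and 8.7%, beside 36.1% and 34.1%). The median log2 ratio was 1.54, 1.29, 0.83 and 0.96 in the same order. With each library centred on its median the AGO1/2 balance turned, to 80 higher in nuclei and 109 lower (24.8% and 33.9%, beside 26.2% and 40.6% of all genes). The AGO1 knockout then had 124 and 76 (38.5% and 23.6%, beside 28.5% and 46.1%). The AGO2 knockout had 112 and 69 (34.8% and 21.4%, beside 27.0% and 44.9%), and the AGO1/2/3 knockout 98 and 73 (30.4% and 22.7%, beside 26.6% and 40.9%).

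LINC01515, the most abundant LINC gene in wild-type nuclei, was lower in the nuclei of every knockout. It lies at chr10:65570338-65880289 on the plus strand, 32168 bp from CTNNA3, which encodes an alpha-catenin. Its nuclear level was 84.9, 92.4 and 76.8 TPM in the wild-type libraries, 52.8, 44.7 and 40.1 in the AGO1 knockout, 39.2, 36.6 and 32.1 in the AGO2 knockout, 21.5, 21.9 and 21.0 in the AGO1/2 knockout and 24.7, 21.6 and 17.2 in the AGO1/2/3 knockout. Every knockout library lay below every wild-type library, and the multiple knockouts lay below the single ones. The log2 changes were -0.64 (SE 0.10, adjusted p = 0.00037), -0.99 (SE 0.10, adjusted p = 6.5e-06), -1.94 (SE 0.11, adjusted p = 1e-09) and -1.79 (SE 0.11, adjusted p = 3.5e-09). In cytoplasm LINC01515 was at 6.90, 6.64 and 7.37 TPM in wild type and between 3.89 and 7.02 TPM in the knockout libraries. Only the AGO1/2/3 knockout was called there (-0.38, adjusted p = 0.020), and that call was lost without cytoplasmic wild-type replicate 29 or AGO1/2/3 replicate 11 or 14. Its log2 nuclear to cytoplasmic ratio was 3.16 in wild type and 2.86, 2.10, 1.23 and 1.66 in the knockouts, with changes of -0.30 (adjusted p = 0.42), -1.06 (adjusted p = 0.00036), -1.93 (adjusted p = 5.3e-09) and -1.50 (adjusted p = 5.8e-07). The log2 changes are of estimated reads after TMM scaling, a different scale from TPM, so they need not equal the ratio of the TPM means.

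LINC02832, at chr2:219685381-219737937 on the plus strand with 13.04% of its words shared, was likewise below wild type in every knockout and lowest in the AGO1/2 knockout. Its nuclear libraries gave 60.2, 71.2 and 44 TPM in wild type, 37.2, 33.1 and 27.4 in the AGO1 knockout, 21.4, 23.1 and 18.6 in the AGO2 knockout, 9.17, 8.71 and 12.2 in the AGO1/2 knockout and 17.5, 14.0 and 14.2 in the AGO1/2/3 knockout, with no overlap between wild type and any knockout. The log2 changes were -0.51 (adjusted p = 0.0057), -0.78 (adjusted p = 0.00017), -1.50 (adjusted p = 5.7e-08) and -1.0 (adjusted p = 5.2e-06). LINC01002, at chr19:198264-246544 on the minus strand, fell from a mean of 58.8 TPM to 34.7, 34.2, 25.05 and 26.7 TPM, but 78.64% of its words occur in other genes and its level is uncertain.

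LINC01572, LINC01355 and LINC01876 were further nuclear LINC RNAs that were lower in every knockout. LINC01355 fell in nuclei from 8.72 ± 0.35 TPM (SD, n = 3) to 4.38 ± 0.68, 4.11 ± 0.39, 2.86 ± 0.20 and 2.98 ± 0.22 TPM, with log2 changes of -0.81, -0.84, -1.59 and -1.33 (SE 0.07 each, adjusted p at most 3.2e-06). In cytoplasm it had 0.17 ± 0.05 TPM in wild type and between 0.115 and 0.215 TPM in the knockout libraries, and no knockout was called. Its ratio fell in each knockout, by 1.27 (adjusted p = 0.00046), 0.96 (adjusted p = 0.0019), 1.70 (adjusted p = 8.5e-08) and 1.29 (adjusted p = 1.2e-05) on the log2 scale. LINC01572, at chr16:72236281-72665014 on the minus strand with 15.26% of its words shared, stood at 11.5, 12.9 and 11.4 TPM in wild-type nuclei and between 3.41 and 6.78 TPM in the 12 knockout nuclear libraries. Its ratio also fell in all 4, by 0.87 (adjusted p = 0.024), 1.19 (adjusted p = 0.00051), 1.91 (adjusted p = 3.8e-08) and 1.59 (adjusted p = 1.8e-06). LINC01876, beside NR4A2, which encodes a nuclear receptor, fell by 0.53, 0.92, 1.62 and 1.05 in nuclei. Its ratio did not pass in the AGO1 knockout (-0.70, adjusted p = 0.19) and fell by 0.97, 1.84 and 1.31 in the others.

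In nuclei 28 LINC genes (9.72% of 288) were lower in all 4 knockouts and 1 was higher, LINC00857 (0.347%), beside 6.67% and 6.71% of all genes. Of the 28, 26 reached 1 TPM in at least 1 group. They include LINC01515, LINC02832, LINC00511, LINC02331, LINC01405, LINC00467, LINC00698, LINC01031, LINC01473, LINC02595, LINC01278 and LINC00470, and also LINC01002 and LINC01347, of whose words 78.64% and 79.39% are shared. All 4 comparisons use the same wild-type libraries, so the overlap is not 4 separate observations. In cytoplasm 4 were lower in all knockouts (LINC00467, LINC00698, LINC02967 and LINC01910; 1.59% of 251) and 0 higher, beside 0.932% and 0.494% of all genes. LINC00857, which lies 1800 bp from ANXA11 and is transcribed away from it, had log2 changes of 0.28, 0.34, 0.59 and 0.45 in nuclei and was named after its values were seen.

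LINC02331 was lowest in the AGO2 knockout rather than in the multiple ones. It lies at chr14:53685139-53850882 on the minus strand, has 1 transcript in the files and shares 0% of its words with other genes. In nuclei it was at 17.7, 19.1 and 16.3 TPM in wild type, 7.46, 7.41 and 5.71 in the AGO1 knockout, 2.60, 2.87 and 4.03 in the AGO2 knockout, 5.66, 5.73 and 5.6 in the AGO1/2 knockout and 6.79, 6.55 and 5.37 in the AGO1/2/3 knockout. All knockout libraries lay below wild type, and the AGO2 knockout below the other 3. It changed by log2 values of -1.15 (SE 0.15, adjusted p = 9.6e-05), -2.23 (SE 0.16, adjusted p = 2.1e-07), -1.64 (SE 0.15, adjusted p = 2.1e-07) and -1.29 (SE 0.15, adjusted p = 3.5e-06). In cytoplasm the libraries gave 6.96, 6.13 and 7.42 TPM in wild type and 2.07, 2.01 and 2.16 TPM in the AGO2 knockout, and the changes passed in the AGO1 knockout (-0.82, adjusted p = 0.00088) and the AGO2 knockout (-1.49, adjusted p = 3.8e-06) but not in the AGO1/2 (-0.31, adjusted p = 0.060) or AGO1/2/3 knockout (-0.32, adjusted p = 0.057). The nearest protein-coding gene, BMP4, which encodes a secreted growth factor, lies 98854 bp away. BMP4 fell in nuclei by 0.79 in the AGO1 knockout (adjusted p = 0.00027) and by 1.68 in the AGO2 knockout (adjusted p = 2.7e-07), with values of -0.05 (adjusted p = 0.72) and 0.03 (adjusted p = 0.83) in the AGO1/2 and AGO1/2/3 knockouts.

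LINC01405 stood low wherever AGO1 was edited and was one of the few LINC RNAs that were relatively more abundant in cytoplasm. It lies at chr12:110934590-110959093 on the plus strand, with 21.32% of its words shared. Its cytoplasmic libraries gave 7.52, 8.42 and 14.8 TPM in wild type, 3.13, 2.38 and 2.98 in the AGO1 knockout, 5.98, 7.14 and 6.13 in the AGO2 knockout, 1.35, 0.84 and 0.90 in the AGO1/2 knockout and 1.42, 1.08 and 1.62 in the AGO1/2/3 knockout. Cytoplasmic log2 changes were -1.85 (adjusted p = 0.00025), -0.60 (adjusted p = 0.10), -2.99 (adjusted p = 5.7e-07) and -2.80 (adjusted p = 1.4e-06). The 3 groups with AGO1 edited lay below the AGO2 knockout as well as below wild type. In nuclei the wild-type libraries gave 4.08, 4.10 and 5.04 TPM and the changes were -2.58, -0.92, -3.97 and -3.89, all called at an adjusted p of 0.0044 or less. MYL2, a myosin light chain gene of muscle, lies 13147 bp away and moved the other way. Its nuclear log2 changes were 0.34 (adjusted p = 0.77), 2.91 (adjusted p = 2e-04), 5.05 (adjusted p = 2.5e-08) and 4.67 (adjusted p = 1.2e-07).

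LINC00173 passed the test in the multiple knockouts and not in the single ones. It lies at chr12:116533422-116536518 on the plus strand, 11587 bp from MAP1LC3B2, a gene of the LC3 family of autophagy proteins. Its nuclear libraries gave 15.6, 14.8 and 30.6 TPM in wild type, 12.8, 11.8 and 13.6 in the AGO1 knockout, 10.7, 12.7 and 12.2 in the AGO2 knockout, 3.19, 1.66 and 3.10 in the AGO1/2 knockout and 3.62, 3.44 and 4.05 in the AGO1/2/3 knockout. The third wild-type library was about the sum of the other wild-type libraries, and the multiple knockouts lay below all other groups. Nuclear log2 changes were -0.30 (SE 0.23, adjusted p = 0.34), -0.49 (SE 0.23, adjusted p = 0.10), -2.79 (SE 0.25, adjusted p = 1.7e-07) and -2.14 (SE 0.25, adjusted p = 2.8e-06). In cytoplasm its means were 1.06 TPM in wild type, 0.95 and 0.98 TPM in the single knockouts and 0.15 and 0.28 TPM in the AGO1/2 and AGO1/2/3 knockouts, with changes in these of -1.79 (adjusted p = 1.2e-05) and -1.68 (adjusted p = 3.1e-05).

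**Figure D5:**
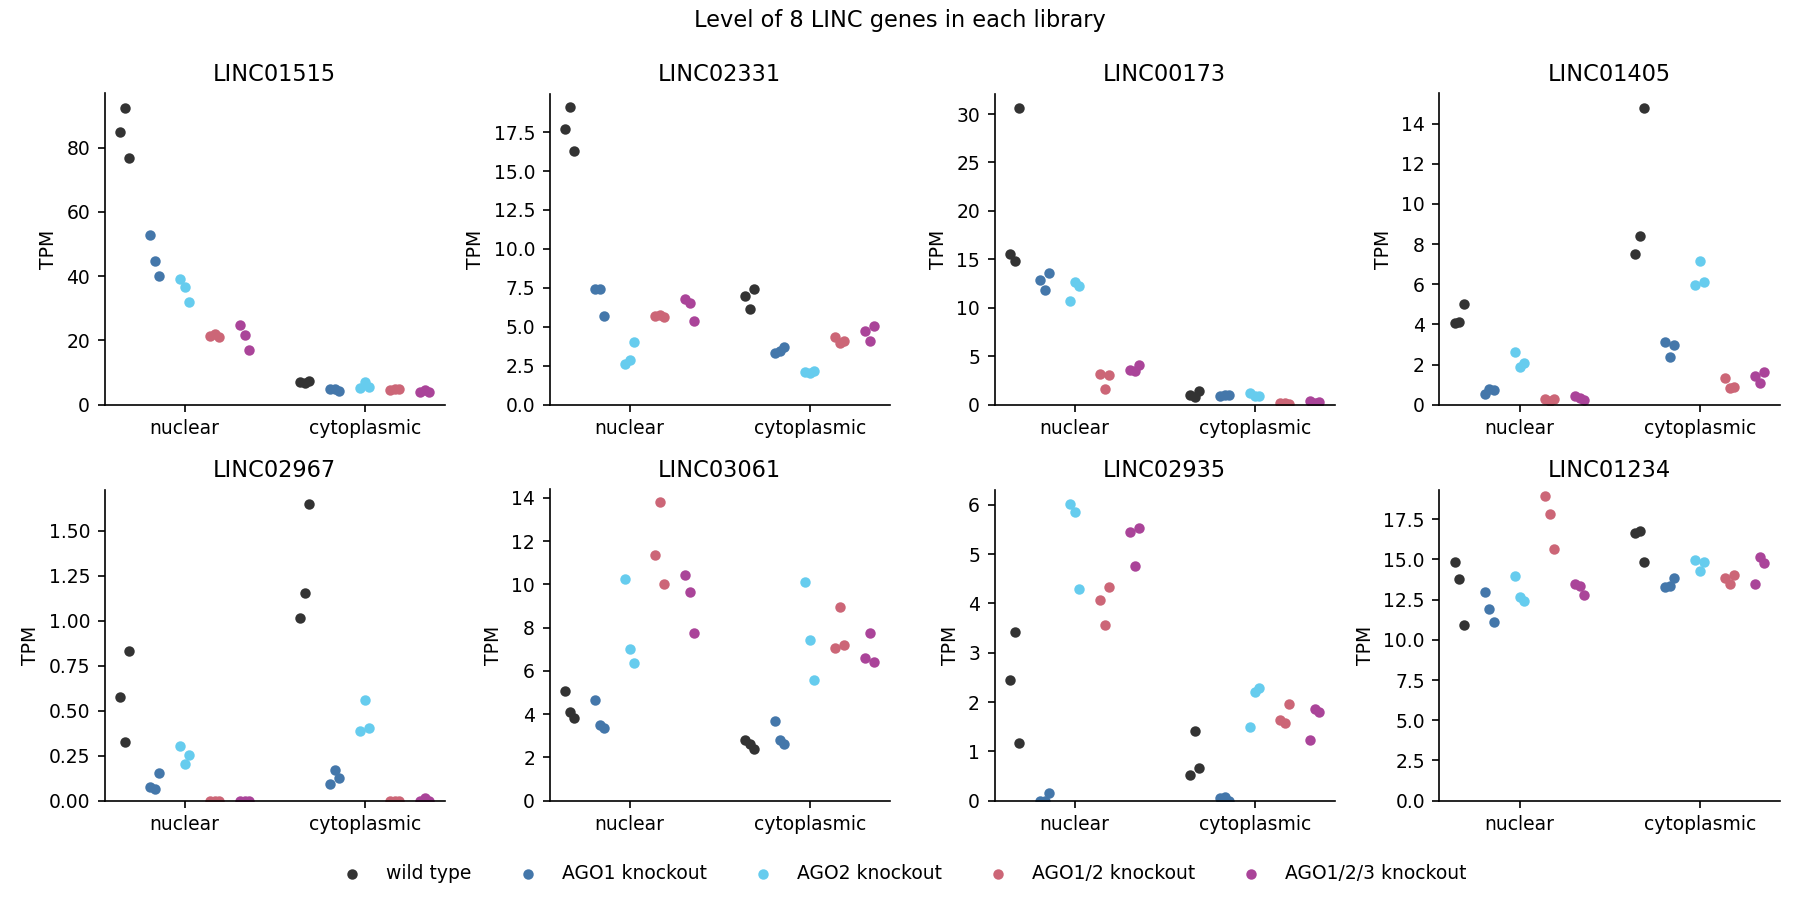
Level (TPM, linear axes from 0) of 8 LINC genes in each of the 30 libraries, by fraction and coloured by genotype; each point is a library. LINC01515 and LINC02331 are below wild type in every knockout nuclear library, LINC00173 is low in the AGO1/2 and AGO1/2/3 knockouts, LINC03061 is higher in the 3 groups with AGO2 edited, and LINC01234 stays between 10.9 and 18.9 TPM throughout.

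A few low-abundance LINC genes were at or near 0 in some lines. LINC00698, at chr3:62950430-63125062 on the plus strand, had 150 nuclear reads over the wild-type libraries (1.38, 1.41 and 2.13 TPM) and 0 reads in the AGO1, AGO2 and AGO1/2 knockouts. Against a floor of 3 reads over a group, it was at least 68.6-fold, 78.3-fold and 109.6-fold lower there. The AGO1/2/3 knockout had 1 nuclear read, a ratio of 282.4 (95% counting interval 49.9 to 11227.7). In cytoplasm it had 83 wild-type reads, 0 in the same knockouts (at least 48.8-fold, 47.4-fold and 51.8-fold lower) and 1 in the AGO1/2/3 knockout (ratio 152.7, interval 26.7 to 6104.8). The 0 counts allow up to 3 reads over a group, and the intervals cover counting error only.

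LINC02967, a gene of 1 exon at chr20:24931840-24932983 on the plus strand with 20.29% of its words shared, gave 1.01, 1.15 and 1.65 TPM in wild-type cytoplasm, 0.09, 0.17 and 0.13 in the AGO1 knockout and 0.39, 0.56 and 0.40 in the AGO2 knockout. It had 0 reads in the AGO1/2 knockout (at least 136.1-fold lower than the 218 wild-type reads) and 2 in the AGO1/2/3 knockout (ratio 200.6, interval 54.9 to 1666.8). The changes in the single knockouts were -3.15 (adjusted p = 0.00018) and -1.28 (adjusted p = 0.019), and the latter was lost without cytoplasmic wild-type replicate 29 or AGO2 replicate 8 or 10. All knockout libraries of LINC02967 lay below the wild-type ones in cytoplasm. LINC02616, at chr4:37001772-37023499 on the plus strand, had 72 wild-type nuclear reads and 0 in the AGO1 knockout (at least 32.9-fold lower). In the AGO2 knockout it was instead higher, at 1.35, 1.3 and 1.18 TPM against 0.41, 0.39 and 0.42 TPM in wild type (log2 change 1.67, adjusted p = 1.6e-05).

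LINC03061 and LINC02935 were higher in the knockouts with AGO2 edited. LINC03061, at chr13:109269634-109278512 on the plus strand with 10.34% of its words shared, had nuclear levels of 5.07, 4.08 and 3.84 TPM in wild type, 4.64, 3.48 and 3.35 in the AGO1 knockout, 10.2, 7.01 and 6.38 in the AGO2 knockout, 11.3, 13.8 and 10.0 in the AGO1/2 knockout and 10.4, 9.65 and 7.76 in the AGO1/2/3 knockout. Every library with AGO2 edited was above every wild-type and AGO1 knockout library. The log2 changes were 0.04 (adjusted p = 0.86), 1.10 (adjusted p = 7.2e-05), 1.45 (adjusted p = 8.3e-07) and 1.32 (adjusted p = 3.5e-06) in nuclei, and in cytoplasm 0.36 (adjusted p = 0.22), 1.80 (adjusted p = 1.7e-05), 2.0 (adjusted p = 8.9e-07) and 1.66 (adjusted p = 7.6e-06). LINC02935, a transcript of 315 nt at chr10:112888735-112906111 on the plus strand with 21.4% of its words shared, was higher in the same 3 groups and nearly absent from the AGO1 knockout. Its nuclear libraries gave 2.46, 3.41 and 1.17 TPM in wild type, 0, 0 and 0.15 in the AGO1 knockout, 6.01, 5.85 and 4.30 in the AGO2 knockout, 4.07, 3.56 and 4.33 in the AGO1/2 knockout and 5.46, 4.77 and 5.53 in the AGO1/2/3 knockout. The AGO1 knockout held 1 read against 31 in wild type (ratio 42.5, interval 7.1 to 1732.7), and the other changes were 1.44 (adjusted p = 0.0016), 0.78 (adjusted p = 0.037) and 1.40 (adjusted p = 0.00099). The AGO1/2 call was lost without nuclear wild-type replicate 27 or 29 or AGO1/2 replicate 9 or 11, and also with DESeq2. The nearest gene, TCF7L2, a transcription factor of the Wnt pathway, lies 44136 bp away, and its nuclear changes were 0.24 (adjusted p = 0.058), 0.32 (adjusted p = 0.010), 0.11 (adjusted p = 0.30) and 0.36 (adjusted p = 0.0026).

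LINC01232 moved in opposite directions between lines. It lies at chr13:99486962-99499306 on the minus strand, opposite TM9SF2, which encodes a transmembrane protein, with 18.72% of its words shared. Its nuclear level was 1.63, 1.41 and 1.34 TPM in wild type, 0.44, 0.42 and 0.50 in the AGO1 knockout, 1.03, 1.23 and 0.96 in the AGO2 knockout, 2.13, 1.76 and 2.31 in the AGO1/2 knockout and 1.86, 2.22 and 2.23 in the AGO1/2/3 knockout. The AGO1 knockout lay below wild type and the multiple knockouts above it. The log2 changes were -1.84 (SE 0.17, adjusted p = 3.9e-06), -0.27 (SE 0.15, adjusted p = 0.15), 0.75 (SE 0.14, adjusted p = 0.00019) and 1.08 (SE 0.14, adjusted p = 7.6e-06). TM9SF2 in nuclei gave 0.04 (adjusted p = 0.65), 0.40 (adjusted p = 9.8e-05), 0.68 (adjusted p = 7.4e-08) and 0.76 (adjusted p = 3.6e-08). LINC02875, 2285 bp from the T-box transcription factor gene TBX2, also differed in direction. Its nuclear changes were 0.89 in the AGO1 knockout (adjusted p = 0.031), lost without nuclear wild-type replicate 28 or 29 or AGO1 replicate 7 or 8, and -2.64 (adjusted p = 9.1e-05), -1.40 (adjusted p = 0.0014) and -1.01 (adjusted p = 0.013) in the others.

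Further LINC genes were higher in the multiple knockouts. LINC03040, at chr6:44000580-44007612 on the plus strand, was at 4.27, 4.36 and 4.61 TPM in AGO1/2/3 knockout nuclei and at 0.64, 0.71 and 2.80 TPM in wild type, where 1 library stood apart (log2 change 1.86, SE 0.45, adjusted p = 0.0023). LINC00888 (19.65% of words shared) was at 4.67, 4.59 and 4.85 TPM in AGO1/2 knockout nuclei against 2.62, 3.42 and 4.04 in wild type (0.63, adjusted p = 0.0037) and rose in cytoplasm by 1.0 (adjusted p = 4.4e-05). LINC01098 was lower in AGO1/2 knockout nuclei, at 0.81, 0.95 and 1.22 TPM against 1.76, 2.32 and 1.37 in wild type (-0.84, adjusted p = 0.0028), but higher in cytoplasm, at 0.97, 1.16 and 1.16 TPM against 0.71, 0.59 and 0.86 (1.01, adjusted p = 0.0011). Neither fraction of LINC01098 overlapped between these groups, and its ratio fell by 1.93 (adjusted p = 1.8e-05). LINC01842, with 11.50% of its words shared, rose in cytoplasm by 1.26 (adjusted p = 0.00021) in the AGO1/2 knockout and 1.34 (adjusted p = 0.00018) in the AGO1/2/3 knockout, with nuclear values of 0.24 and 0.50 that did not pass.

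Of 38 LINC genes that have been described in the literature, 32 were in the files and 19 were tested in each fraction. In nuclei 1 was higher and 5 lower in the AGO1 knockout, 2 and 7 in the AGO2 knockout, 1 and 15 in the AGO1/2 knockout and 1 and 11 in the AGO1/2/3 knockout, with median log2 changes of -0.20, -0.22, -0.66 and -0.46. The lower ones were 26.3%, 36.8%, 78.9% and 57.9% of the 19, beside 15.6%, 19.9%, 34.7% and 29.5% of all genes. In cytoplasm the counts were 1 and 3, 1 and 3, 4 and 3, and 0 and 3, where 3 lower is 15.8%, beside 8.13%, 9.0%, 25.4% and 20.0% of all genes. The higher ones were 5.26%, 10.5%, 5.26% and 5.26% in nuclei, beside 14.3%, 20.2%, 32.9% and 29.1% of all genes. In cytoplasm the higher ones were 5.26%, 5.26%, 21.1% and 0.0%, beside 4.28%, 7.07%, 23.9% and 18.6%. With 19 genes a single call is 5.26%. Of 20 tested for the ratio, 13 were higher in nuclei and 4 lower in wild type. Over all genes 39.6% were higher and 37.3% lower, and over all tested LINC genes 66.46% and 8.07%. The higher share was thus near that of LINC genes as a whole. In the 4 knockouts the ratio fell in 2, 2, 9 and 6 of the 20 genes and rose in 0. Falls over all genes were 0.478%, 3.13%, 17.0% and 11.1%, and rises 0.184%, 2.63%, 19.6% and 11.7%. Falls over all tested LINC genes were 0.93%, 5.28%, 26.4% and 13.98%. LINC00511, which has been described as raised in several carcinomas, was at 18.0, 18.8 and 18.7 TPM in wild-type nuclei, 12.6, 10.0 and 10.8 in the AGO1 knockout and 13.5, 12.6 and 10.3 in the AGO2 knockout. It was at 14.4, 14.5 and 14.0 in the AGO1/2 knockout and 15.2, 12.2 and 12.5 in the AGO1/2/3 knockout, all below wild type. Its changes were -0.51 (adjusted p = 0.00034), -0.44 (adjusted p = 6e-04), -0.26 (adjusted p = 0.0087) and -0.24 (adjusted p = 0.016), the last 2 of which were lost without nuclear wild-type replicate 29, with no filter on low counts or with centred libraries. The AGO1/2/3 call was also lost without replicate 12 or 14 of that knockout.

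LINC00467, which has been reported to encode a small peptide and shares 11.17% of its words, fell in both fractions of all knockouts. Its nuclear means were 6.12 ± 1.42 TPM in wild type (SD, n = 3) and 3.86 ± 0.22, 3.01 ± 0.41, 3.60 ± 0.73 and 3.27 ± 0.23 in the knockouts, and its cytoplasmic means 6.92 ± 0.82 and 4.89 ± 1.10, 3.43 ± 0.67, 3.17 ± 0.87 and 4.23 ± 0.92. The cytoplasmic changes were -0.40 (adjusted p = 0.042), -0.62 (adjusted p = 0.0030), -0.46 (adjusted p = 0.0054) and -0.36 (adjusted p = 0.027), and the AGO1 and AGO1/2/3 calls were lost without cytoplasmic wild-type replicate 29. The AGO1 call was also lost without any 1 of the AGO1 libraries, the AGO1/2/3 call without replicate 11 or 12, and the nuclear AGO1 call (-0.52, adjusted p = 0.020) without nuclear wild-type replicate 29 or AGO1 replicate 7 or 8. Libraries of LINC00467 did not overlap between wild type and any knockout in either fraction. LINC00963 (15.58% of words shared) and LINC01270 (29.18%) were lower in both fractions of the AGO1 knockout. LINC00963 was at 5.15, 6.81 and 6.72 TPM in AGO1 knockout nuclei against 11, 11.6 and 17.9 in wild type (-0.97, adjusted p = 0.011), a call lost without nuclear wild-type replicate 29 or AGO1 replicate 6. Its cytoplasmic value was -0.99 (adjusted p = 0.032), lost without cytoplasmic wild-type replicate 29 or AGO1 replicate 6 or 7. LINC01270 was at 1.40, 1.66 and 1.76 TPM against 2.92, 3.27 and 5.66 (-1.01, adjusted p = 0.0030).

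LINC00641 fell in nuclei from 18.4 TPM in wild type to 14.4, 11.2, 10.7 and 9.60 TPM, with changes of -0.13 (adjusted p = 0.43), -0.44 (adjusted p = 0.0062), -0.76 (adjusted p = 2.7e-05) and -0.72 (adjusted p = 6.6e-05), where the AGO2 call was lost without nuclear wild-type replicate 28. In cytoplasm it was higher in the AGO1 knockout, at 2.96, 2.85 and 2.71 TPM against 2.33, 1.89 and 1.55 in wild type (0.70, adjusted p = 0.0010). LINC01138, the microRNA host, was at 11.7, 11.3 and 12.3 TPM in wild-type nuclei and 6.85, 5.56 and 6.53 in the AGO1/2 knockout (-0.81, adjusted p = 4.8e-05), without overlap, and its ratio fell by 1.23 (adjusted p = 3.6e-05) there and by 0.88 (adjusted p = 0.0026) in the AGO1/2/3 knockout. LINC00460 was lower in AGO2 knockout cytoplasm, at 1.69, 1.69 and 1.35 TPM against 4.07, 3.03 and 4.29 (-0.99, adjusted p = 0.0020).

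LINC01234, the LINC gene most abundant in wild-type cytoplasm, stayed between 10.9 and 18.9 TPM in all 30 libraries. Its nuclear libraries gave 14.8, 13.8 and 10.9 TPM in wild type, and its means were 12.0, 13.0, 17.5 and 13.2 TPM in the knockouts, of which only the AGO1/2 knockout did not overlap wild type (18.9, 17.8 and 15.6 TPM, log2 change 0.39, SE 0.07, adjusted p = 9.9e-05). The AGO2 (0.23, adjusted p = 0.014) and AGO1/2/3 (0.25, adjusted p = 0.0048) calls were lost on log2(TPM + 1), where the AGO2 value was -0.01. Its log2 ratio was -0.83 in wild type and -0.61, -0.67, -0.71 and -0.75 in the knockouts, and no change of the ratio passed (adjusted p between 0.25 and 0.57). LINC03057, 2351 bp from the homeobox gene HOXB7, behaved likewise, with nuclear means of 9.82 TPM in wild type and 13.2 TPM in the AGO1/2 knockout (0.47, adjusted p = 0.00022). HOXB7 itself rose in nuclei by 0.51, 0.89, 1.67 and 1.36 in the 4 knockouts (adjusted p at most 0.0019). LINC02985 was lower in the multiple knockouts, at 7.50 and 8.81 TPM against 14.7 TPM in nuclei (-0.94 and -0.53) and 3.65 and 4.11 TPM against 8.00 TPM in cytoplasm (-0.67 and -0.50).

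The nuclear calls were also counted within kinds of LINC gene, in the same order of knockouts and beside the 15.6%, 19.9%, 34.7% and 29.5% of all genes called lower. Of all genes, 14.3%, 20.2%, 32.9% and 29.1% were called higher, and every share of higher calls given here was under that background. Of the 251 tested genes with several exons, 53, 68, 136 and 99 were lower (21.1%, 27.1%, 54.2% and 39.4%) and 5, 11, 13 and 21 higher (1.99%, 4.38%, 5.18% and 8.37%). Of the 37 of a single exon, 4, 5, 18 and 12 were lower (10.8%, 13.5%, 48.6% and 32.4%) and 4, 4, 2 and 2 higher (10.8%, 10.8%, 5.41% and 5.41%). Their lower calls were thus under the background in the single knockouts. Another 32 tested genes start within 5000 bp of a protein-coding start on the opposite strand, whether divergent or overlapping. Of these, 1, 4, 13 and 7 were lower (3.12%, 12.5%, 40.6% and 21.9%) and 2, 3, 3 and 3 higher (6.25%, 9.38%, 9.38% and 9.38%). They exceeded the background of lower calls only in the AGO1/2 knockout. The 169 genes with at most 10% of their words shared had 35, 47, 92 and 66 lower (20.7%, 27.8%, 54.4% and 39.1%) and 6, 8, 8 and 14 higher (3.55%, 4.73%, 4.73% and 8.28%). The 249 that overlap no protein-coding gene had 51, 65, 133 and 96 lower (20.5%, 26.1%, 53.4% and 38.6%) and 9, 15, 13 and 21 higher (3.61%, 6.02%, 5.22% and 8.43%).

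In nuclei the protein-coding gene nearest to a called LINC gene was called in the same direction more often than protein-coding genes as a whole. The exception was lower LINC genes of the AGO1/2 knockout. For higher LINC genes with a tested neighbour, the neighbour was also higher for 5 of 9 in the AGO1 knockout, 7 of 11 in the AGO2 knockout, 10 of 13 in the AGO1/2 knockout and 13 of 21 in the AGO1/2/3 knockout in nuclei. The share of all protein-coding genes called higher was 18.49%, 26.88%, 43.84% and 38.52%. For lower LINC genes the neighbour was lower for 11 of 45, 21 of 59, 28 of 119 and 27 of 86, beside 15.95%, 17.65%, 25.78% and 24.15% of protein-coding genes. The shares for lower LINC genes were 24.44%, 35.59%, 23.53% and 31.4%. They were thus above that background in the AGO1, AGO2 and AGO1/2/3 knockouts and near it in the AGO1/2 knockout. The shares over LINC genes are descriptions with no test, because neighbours were read from the same libraries.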

How the data were processed

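Nuclear and cytoplasmic RNA of 5 HCT116 genotypes was analysed in 30 libraries, and 8 eCLIP samples were not analysed here. The authors deposited Salmon estimated counts and TPM values per transcript (200401 transcripts), and the submitters' processing notes name STAR 2.5.3a and Salmon 0.11.0. Transcripts were matched to GENCODE 44 by identifier without version (97.824% matched; unmatched ones held 2.232% to 4.01% of reads) and summed per gene. Estimated counts were rounded and tested with edgeR 4.0.16 (TMM, filterByExpr with a minimum count of 10, quasi-likelihood test, Benjamini-Hochberg adjustment over all genes, threshold 0.05) in R 4.3.3. Separate fits held the 15 nuclear and the 15 cytoplasmic libraries, and 1 fit of all 30 gave ratios and their changes. DESeq2 1.42.0, limma 3.58.1, other filters and scalings and left-out libraries were alternatives. The steps were tested on simulated data.

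Genes named in the text were the most abundant, the most unequal between fractions, those with the largest rises or falls in each comparison, those called in the same direction in all knockouts, those with the largest ratio changes, and described LINC genes at 1 TPM or more, and genes outside this rule are marked as such or given only in counts and lists. Members and lists were chosen with earlier results of these data known. Fractions that share a passage number deviated together in wild type (r = 0.1562, 0.148 and 0.4015) but not in every knockout (-0.0271 to 0.2121), so the ratio fits were repeated with the passage as a replicate block.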

Additional observations from a re-analysis of the deposited data

Results flagged for a closer look

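The nuclear to cytoplasmic ratio of the following LINC genes changed differently from wild type, by the test of the interaction of fraction and knockout in edgeR with Benjamini-Hochberg adjustment over all genes. Values are log2 changes of the ratio, and a negative value means a lower nuclear share than in wild type.

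In the AGO1 knockout the ratio fell for LINC01355 (-1.27, adjusted p = 0.00046), LINC01572 (-0.87, adjusted p = 0.024) and LINC00641 (-0.81, adjusted p = 0.023). The LINC01572 and LINC00641 calls were lost without cytoplasmic wild-type replicate 29, nuclear wild-type replicate 28, cytoplasmic AGO1 replicate 7 or nuclear AGO1 replicate 7 or 8, and the LINC00641 call also without cytoplasmic AGO1 replicate 6. In the AGO2 knockout it fell for LINC02595 (-1.71, adjusted p = 0.036), LINC02887 (87.51% of 31-base words shared with other genes, -1.28, adjusted p = 0.026) and LINC00640 (-1.27, adjusted p = 0.026), and all 3 calls were lost without single libraries.

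In the AGO1/2 knockout the ratio fell for LINC01473 (-2.92, adjusted p = 0.00046), LINC01031 (-2.64, adjusted p = 0.0015) and LINC01238 (-2.23, adjusted p = 0.019), and rose for LINC01963 (0.46, adjusted p = 0.032) and LINC00623 (72.76% shared, 0.43, adjusted p = 0.038). In the AGO1/2/3 knockout it fell for LINC01031 (-2.78, adjusted p = 0.0019), LINC02405 (-1.77, adjusted p = 0.0008) and LINC01572 (-1.59, adjusted p = 1.8e-06), and rose for LINC03011 (1.25, adjusted p = 0.048). LINC01031 and LINC01238 had at most 10 and 5 cytoplasmic reads in a library. The LINC01238 call was lost without cytoplasmic AGO1/2 replicate 9 or nuclear wild-type replicate 28, and the calls of LINC01963, LINC00623 and LINC03011 were also lost without single libraries.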

How the results depend on the processing

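Each count of called LINC genes and each called value of a named gene was recomputed under the alternatives, of which the centring of libraries was chosen after seeing the data. The counts in this paragraph take both directions together and have no share over all genes beside them. They show how far a count moved, and not whether its difference from all genes held. Requiring a mean of at least 50 reads tests fewer genes and left 34, 58, 90 and 77 nuclear calls, 11, 12, 38 and 29 cytoplasmic calls (knockouts of AGO1, of AGO2, of AGO1/2 and of AGO1/2/3) and 90, 88, 85, 78 and 82 ratio calls (wild type first). With only the groups compared in the fit there were 35 nuclear calls for AGO1, 9, 12, 42 and 33 cytoplasmic calls and ratio changes of 1 (AGO1), 6 (AGO2) and 28 (AGO1/2/3). On log2(TPM + 1), cytoplasmic calls were 39 for AGO1 and 48 for AGO2, and ratio changes 39, 57, 134 and 104, while on log2(TPM + 0.1) the values were 38 and 46, and 17 for the AGO1 ratio change. The AGO1 ratio change gave 5 calls with DESeq2, 5 with RLE size factors, 8 after centring and 7 with the replicate block, against 3, and the AGO2 one gave 9 with no filter, against 18. The cause was not tested. The replicate block moved no other count by over 1.5 times and changed no call of a named gene. Leaving out 1 library gave 1 to 4 calls for the AGO1 ratio change, the lowest without cytoplasmic AGO1 replicate 7, cytoplasmic wild-type replicate 29, nuclear AGO1 replicate 7 or 8 or nuclear wild-type replicate 28. It gave 8 to 20 for AGO2, where cytoplasmic AGO2 replicate 9 or nuclear wild-type replicate 28 gave 8, and cytoplasmic wild-type replicate 28 or nuclear AGO2 replicate 10 gave 11.

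As a percent of reads instead of TPM, the mean LINC share was 0.1456, 0.1103, 0.1083, 0.0766 and 0.0877 in nuclei and 0.0469, 0.0415, 0.0468, 0.0429 and 0.0457 in cytoplasm (wild type first, then the knockouts as before). Without the 5 most abundant genes it was 0.068, 0.0482, 0.0462, 0.0401 and 0.0413, and 0.0234, 0.0186, 0.0192, 0.0166 and 0.0187. Of 2923 recomputed values of named genes 2623 kept direction and call, 290 lost the call and 10 reversed, all on TPM (with 1, then 0.1, added). The reversed values were LINC01234 in AGO2 nuclei (-0.0085 and -0.0084) and AGO1/2 cytoplasm (-0.2071 and -0.2194), LINC03057 in AGO1/2 cytoplasm (-0.0831 and -0.0921) and in the wild-type ratio (0.1797 and 0.1955), and LINC00680 in AGO1/2 cytoplasm (-0.0088 and -0.0128). Depth limited the test to genes with at least about 10 reads, and 1095 LINC genes had none.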
